A study of Mus musculus with 9 samples.

Results

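Wnt proteins are secreted, lipid-modified signals that bind Frizzled receptors together with Lrp co-receptors on the receiving cell and stabilise beta-catenin, which then acts in the nucleus through DNA-binding factors of the Lef1 and TCF family. Other receptors (the Ror kinases and Ryk) and the planar polarity proteins carry branches of the pathway that do not need beta-catenin. R-spondins raise the cell's sensitivity to Wnt, while Sfrp, Dickkopf and Kremen proteins bind the ligands or co-receptors and mostly restrain the signal. In airway glands the pathway is known for its part in gland budding and in the behaviour of myoepithelial cells, the contractile basal-type cells that wrap the gland. The genes of this outer part of the pathway are described here: they were taken by gene symbol from a set of named families, a rule that uses no measured value. They number 52 of the 13336 genes in the table. GENCODE M21 holds 71 protein-coding genes whose symbols match, and the other 19 were not analysed here. By role the 52 are 10 Wnt ligands, 2 ligand-processing genes, 10 Frizzled receptors, 3 Lrp co-receptors, 3 alternative receptors, 2 R-spondins, 1 R-spondin receptor, 3 secreted Frizzled-related inhibitors, 3 Dickkopf or Kremen genes, 5 glypicans, 3 Dishevelled genes and 7 planar polarity or Daam genes.

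RNA was sequenced from 5 Lef1KI and 4 WT libraries, each made from primary tracheal gland cells of a pool of 3 to 5 mice, expanded in culture and sorted at passage 1. Lef1KI mice (ACTA2-CreERT2:Lef-1KI+/+) joined a Cre that tamoxifen switches on under the ACTA2 promoter, which smooth muscle and myoepithelial cells use, with a Lef-1 knock-in allele, and their GFP-negative cells were taken. WT mice (ACTA2-CreERT2:ROSA-TG) carried the same Cre with the ROSA-TG allele, and their GFP-positive cells were taken, so the sorting gate and the genotype change together. Both groups received tamoxifen on each of 5 days, and both cultures held 10 µM Y-27632 and 1 µM each of DMH-1, A83-01 and CHIR 99021, the last an inhibitor of GSK3 that activates beta-catenin signalling below the receptors. The sources used here do not give ages, genetic background, or whether pools shared culture days. Columns are lettered A to E for Lef1KI and A, B, D and E for WT, and p-values measure the spread between these pools.

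Values are TPM, a gene's share of all transcripts corrected for length and scaled to a fixed total, so levels can be set side by side between genes. Each difference is a Lef1KI mean less a WT mean of log2(TPM + 1) values, a scale that understates changes near 0 TPM. They were tested with limma over all 13336 genes, and a gene is said to rise or fall at a Benjamini-Hochberg adjusted p under 0.05. Between 11465 and 12135 genes reached 1 TPM per library. All 8 basal epithelial markers were present, with summed levels of 16884 to 18735 TPM in Lef1KI and 13285 to 20027 TPM in WT; 1 of them fell, the neurotrophin receptor Ngfr, at 1.16 ± 0.7 TPM in Lef1KI libraries and 3.41 ± 1.01 TPM in WT libraries without overlap (log2 difference −1.07, limma adjusted p 0.0305). Of 8 myoepithelial and contractile markers 6 were in the table. Of these 5 had a positive difference, the keratin Krt17 among them, beside 9281 of all 13336 genes. In this list 1, the myosin kinase gene Mylk, rose (log2 difference 0.70, limma adjusted p 0.0448). Acta2, the smooth muscle actin gene, was the one with a negative difference and did not pass, at 62.3 ± 31.2 TPM in Lef1KI libraries and 129 ± 41.04 TPM in WT libraries (log2 difference −1.13, limma adjusted p 0.0834), and Myh11, the smooth muscle myosin, averaged under 1 TPM in each group. Fibroblast and stromal markers moved with the groups: 11 of 12 measured rose, and their summed level was 552 to 1464 TPM in Lef1KI and 153 to 209 TPM in WT, with none at 0 in either group. Of 10 endothelial markers 6 rose, beside 6.73% of all genes (summed level 37.0 to 112 TPM in Lef1KI and 19.9 to 29.9 TPM in WT). Of 5 leukocyte markers 3 had a positive difference and 2, Lyz2 and Coro1a, rose. Their summed level (58.6 to 244 TPM in Lef1KI and 111 to 260 TPM in WT) was mostly Cd68, which had a negative difference. Cd68 averaged 93.7 ± 82.1 TPM in Lef1KI libraries and 180 ± 60.9 TPM in WT libraries and did not pass (log2 difference −1.18, limma adjusted p 0.136). Of 4 luminal and 4 Schwann cell markers none passed in limma, with 1 of each lower at an unadjusted p under 0.05. The deposited table holds only genes whose mean log2 value is at least 3 SD in a group. Of the markers that rose, the endothelial Cdh5, Emcn, Kdr, Plvap and Pecam1 met this in Lef1KI alone. The stromal Thy1 and the leukocyte Lyz2 and Coro1a did too, while Ngfr, which fell, met it in WT alone. The place of these markers in the counts is not independent of that filter. A lower number of cells of a type and less RNA per cell cannot be told apart in these bulk samples.

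Of the 52 genes, 9 rose in Lef1KI and 0 fell. They were the secreted inhibitors Sfrp2 and Frzb, the Dickkopf family gene Dkk3, the R-spondins Rspo1 and Rspo3, the receptors Fzd1 and Ror1, the glypican Gpc3 and the planar polarity gene Prickle2. That is 17.3% of the 52, beside 6.73% of all genes that rose and 1.24% that fell. The deposited table holds genes whose mean log2 value is at least 3 SD in a group, and Gpc3, Rspo1, Frzb and Daam2 met this in Lef1KI alone, where they are higher, so their place in these counts is not independent of that filter. At an unadjusted p under 0.05, limma gave 20 of the 52 higher and 4 lower, beside 2494 higher and 675 lower of all 13336 genes. The median log2 difference of the 52 was 0.203, beside 0.141 over all genes, and their differences ran from −0.69 for Wnt6 to 2.0 for Gpc3. Groups did not overlap for 12 of the 52: 11 lay higher in every Lef1KI library, beside 10.0% of all genes, and Wnt6 lay lower, beside 1.89% of all genes. With each library centred on its median, which takes the median of all genes to −0.02, 7 of the 52 rose and 2 fell (Wnt6 and Lgr4). Of all 13336 genes 605 then rose and 332 fell, and the share of higher among all called genes was 64.6%, against 84.5% as deposited. With trimmed-mean scaling that share was 70.9%, and 8 of the 52 rose and 0 fell, beside 679 and 279 of all genes. The median of the 52 was then 0.04 and 0.07 under these scalings, against a median of 0.01 over all genes under the trimmed-mean one. On the values as deposited none of the 10 ligands passed, and neither did the co-receptors, the ligand-processing genes or the Dishevelled genes. Of the 43 that did not pass, 37 had a 95% confidence interval that stayed within 1 log2 unit of 0, and for 28 the interval spanned 0. Of the 43, 7 averaged under 1 TPM in each group, where this scale understates changes, so a narrow interval there does not exclude a large fold change.

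**Figure D1:**
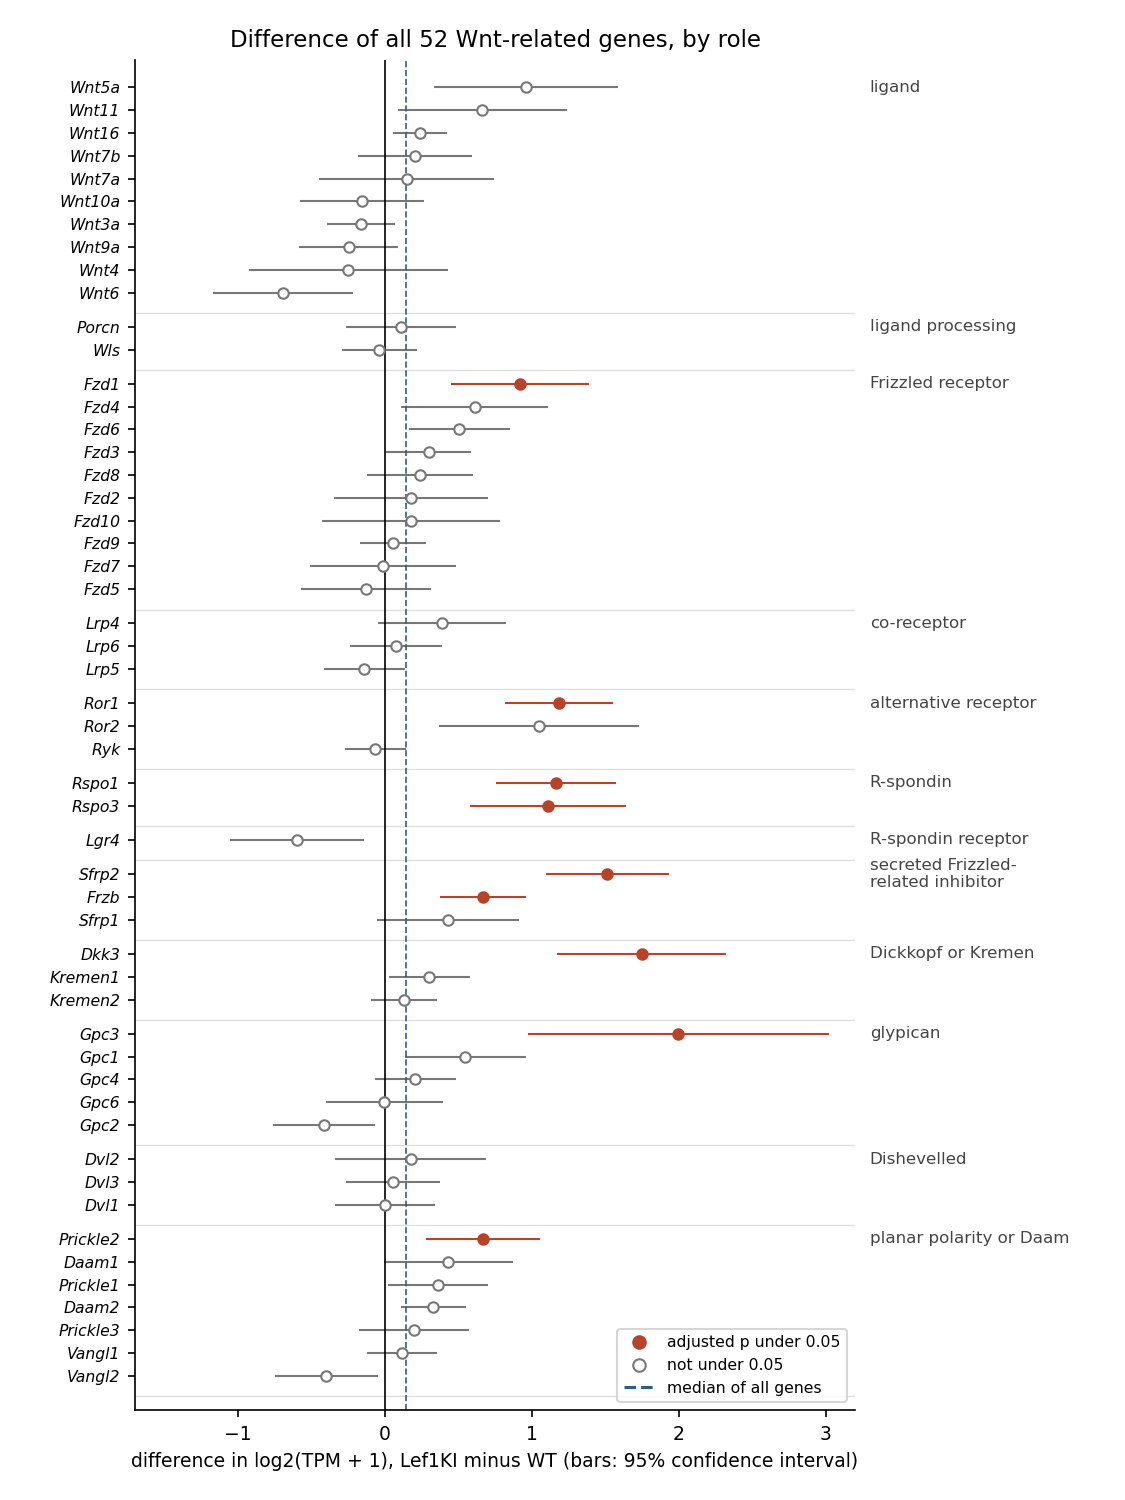
Difference in log2(TPM + 1), Lef1KI minus WT, for the 52 genes grouped by role, with 95% confidence intervals from limma; filled points have an adjusted p under 0.05 and the dashed line is the median of all genes (0.14). The 9 filled points lie between 0.67 and 2.0, and Wnt6, Lgr4, Gpc2 and Vangl2 have intervals wholly below 0.

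The Lef1 protein and its TCF relatives bind short DNA stretches around CTTTG, so promoters were searched on both strands for CTTTGAT, then for CTTTGAA and for CTTTGTT. These motifs share their first 5 bases and differ after them, so no pair of them matches at the same start on a strand. RefSeq windows on GRCm38.p6, 250 bases before to 50 after an annotated start of a gene, were matched by symbol for 34 of the 52 genes and for 7 of the 9 that rose. One of the 3 motifs was present for 3 of the 34 genes (Fzd7, Prickle2 and Wnt11), or 8.82%, beside 11.2% of the 9644 table genes with a window. Among the 7 that rose it was present for Prickle2 alone, in 1 of its 4 windows, which lies inside the gene and not at its outermost start. Of all windows 3.73% hold CTTTGAT. No match says only that these letters are not in these windows. The stretches below show the match in Prickle2, the match in Wnt11, which did not pass the test, and for contrast the start-proximal stretch of Sfrp2, which had the smallest adjusted p of the 52 and no match; each is 120 bases, 5′ to 3′ on the gene's strand, with a motif match in capitals.
Prickle2, chr6:92567467-92567586, minus strand: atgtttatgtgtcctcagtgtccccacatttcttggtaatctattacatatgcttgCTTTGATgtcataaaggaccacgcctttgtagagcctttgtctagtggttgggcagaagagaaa
Wnt11, chr7:98834992-98835111, plus strand: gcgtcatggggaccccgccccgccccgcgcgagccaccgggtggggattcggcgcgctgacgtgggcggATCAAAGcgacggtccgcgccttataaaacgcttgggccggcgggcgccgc
Sfrp2, chr3:83766201-83766320, plus strand: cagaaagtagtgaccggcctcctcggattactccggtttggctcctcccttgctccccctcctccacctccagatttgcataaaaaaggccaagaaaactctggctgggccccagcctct
The Prickle2 stretch runs from 220 to 101 bases before an annotated start inside the gene, which spans chr6:92370908-92706155 on the minus strand. The Wnt11 and Sfrp2 stretches run over the 120 bases before their starts. In that order the stretches have 41.7%, 75.0% and 56.7% G or C.

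Ligand transcripts were abundant in both groups and their totals overlapped: the 10 Wnt genes summed to 157 to 262 TPM in Lef1KI and 184 to 272 TPM in WT. Wnt4, Wnt7b and Wnt10a made up 88.2 ± 3.80% of that sum in Lef1KI (SD, n = 5) and 90.1 ± 2.03% in WT (SD, n = 4). Wnt4, the most abundant ligand, had 112, 59.1, 48.9, 134 and 121 TPM in Lef1KI A to E, against 151, 82.4, 105 and 91.7 TPM in WT A, B, D and E. Its libraries spread more widely than the groups differed, and the groups overlapped (log2 difference −0.25, 95% confidence interval −0.93 to 0.43, limma adjusted p 0.642). Wnt10a averaged 46.8 ± 12.8 TPM in Lef1KI libraries and 50.96 ± 5.83 TPM in WT libraries (log2 difference −0.16, 95% confidence interval −0.58 to 0.26, limma adjusted p 0.635), and Wnt7b, a ligand of airway epithelium, averaged 45.1 ± 9.21 TPM in Lef1KI libraries and 38.9 ± 7.38 TPM in WT libraries (log2 difference 0.21, 95% confidence interval −0.18 to 0.59, limma adjusted p 0.489). These intervals show what the values as deposited allow for the 3 main ligands: a change of 1 log2 unit lay outside each of them. For Wnt4 this did not hold under the scalings. Its difference was −0.41 with median centring (SE 0.324) and −0.41 with trimmed-mean scaling (SE 0.324), so a fall of 1 log2 unit stays within the interval there.

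Ligands at lower levels pointed both ways without passing. Wnt5a, the best-known ligand of the branch without beta-catenin, had 2.9, 5.14, 7.35, 2.5 and 3.96 TPM in Lef1KI A to E, against 0.75, 2.33, 2.42 and 1.39 TPM in WT A, B, D and E. Every Lef1KI library was above every WT library, with the smallest gap between Lef1KI D and WT D (log2 difference 0.96, SE 0.284, limma adjusted p 0.0667). The call appeared without Lef1KI A, at a difference of 1.06. Wnt6 had 2.68, 2.13, 1.71, 3.43 and 1.04 TPM in Lef1KI A to E, against 4.19, 3.48, 4.94 and 3.52 TPM in WT A, B, D and E. Here every Lef1KI library was below every WT library (log2 difference −0.69, SE 0.216, limma adjusted p 0.0795), and the gene passed without Lef1KI D (−0.82) and with median centring (−0.85). Wnt6 and Wnt10a are neighbours on chromosome 1, 6.2 kb apart, and Wnt10a overlapped between the groups. Wnt3a and Wnt9a, 16.2 kb apart on chromosome 11, had differences of −0.16 and −0.24. Wnt11, whose promoter match is shown above, averaged 7.18 ± 2.14 TPM in Lef1KI libraries and 4.18 ± 1.73 TPM in WT libraries (log2 difference 0.66, SE 0.261, limma adjusted p 0.156). For Wnt11, WT D was far above the other WT libraries, and the gene passed without Lef1KI A and with array quality weights. Wnt3a, Wnt7a and Wnt16 averaged under 1 TPM in each group. Exons of Wnt5a, Wnt7b and Wnt11 overlap gene models on the other strand, and the sources used here do not say whether reads were counted by strand.

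Export of Wnt proteins needs Porcn, which attaches their lipid, and Wls, which carries them to the surface. Wls was the most abundant of all 52 genes, with 218, 206, 162, 235 and 182 TPM in Lef1KI A to E, against 209, 201, 203 and 204 TPM in WT A, B, D and E. The WT libraries lay within the range of the Lef1KI libraries (log2 difference −0.04, 95% confidence interval −0.29 to 0.22, limma adjusted p 0.866). Porcn averaged 21.3 ± 3.36 TPM in Lef1KI libraries and 19.8 ± 4.51 TPM in WT libraries (log2 difference 0.11, limma adjusted p 0.716).

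**Figure D2:**
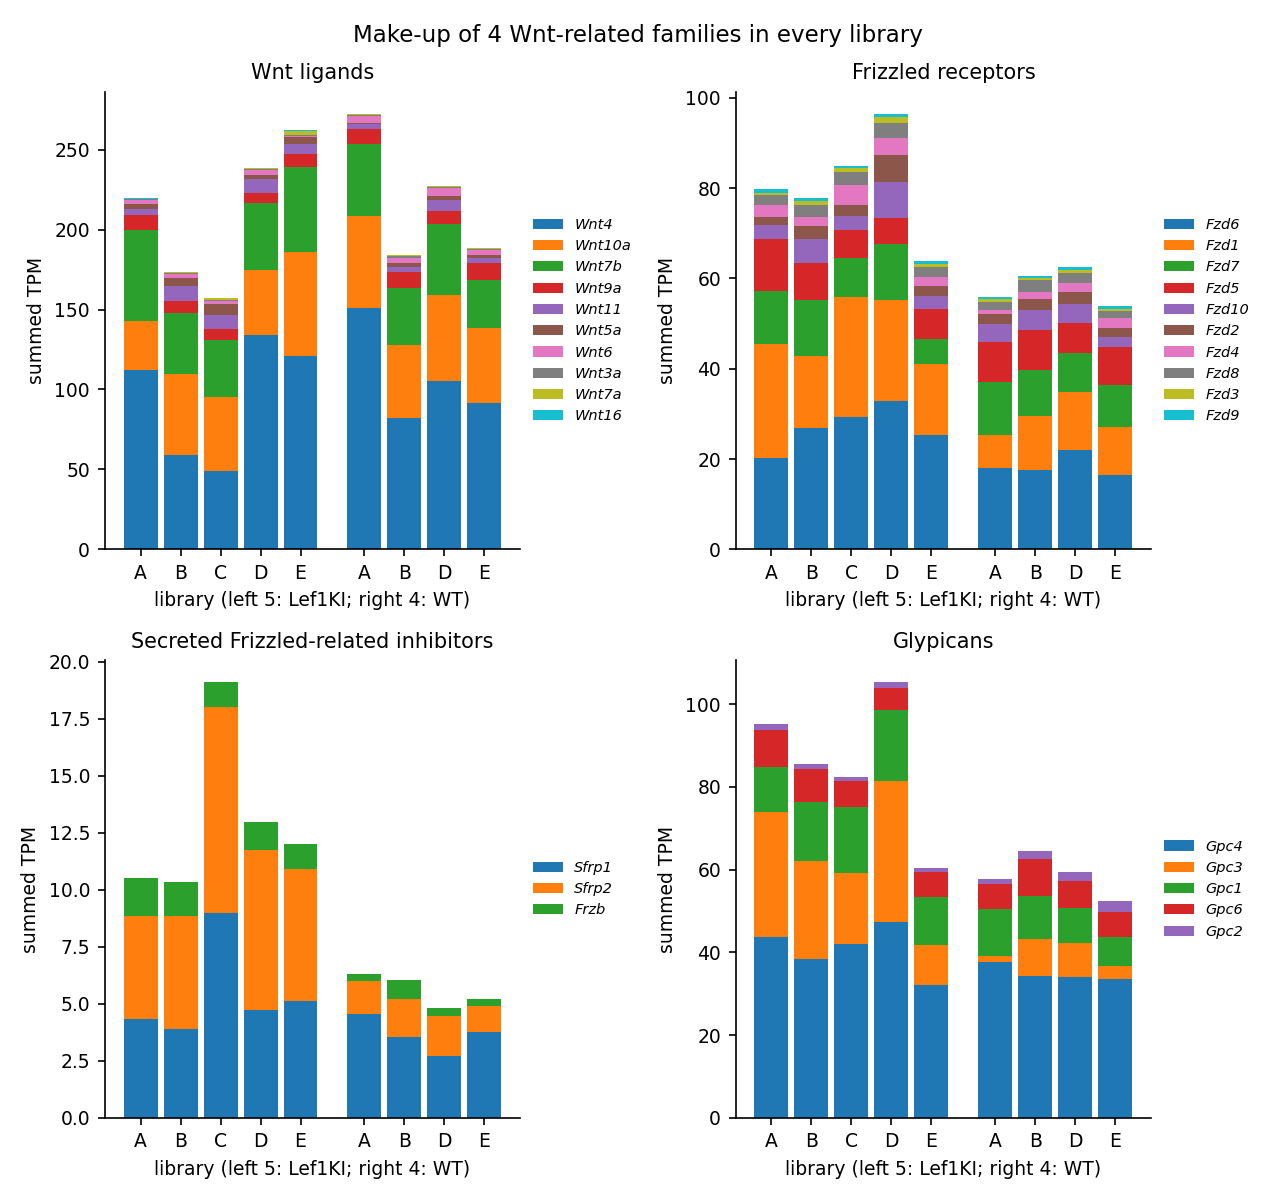
Summed TPM of 4 families in every library, stacked by gene, with the 5 Lef1KI libraries left of the 4 WT libraries in each panel. Wnt4, Wnt10a and Wnt7b fill most of each ligand bar in both groups, while the Sfrp2 part and the Gpc3 part are taller in Lef1KI bars.

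Among receptors, Fzd1 and Ror1 rose. Fzd1 (ENSMUSG00000044674, chr5:4753839-4758035, minus strand), a Frizzled that can signal through beta-catenin, had 25.4, 16.01, 26.5, 22.3 and 15.8 TPM in Lef1KI A to E, against 7.32, 12.1, 12.7 and 10.6 TPM in WT A, B, D and E. All 5 Lef1KI libraries lay above all 4 WT libraries, with Lef1KI B and E lowest of their group and WT A lowest of its own. The means were 21.2 ± 5.09 TPM in Lef1KI libraries and 10.7 ± 2.4 TPM in WT libraries (SD, n = 5 and 4; log2 difference 0.92, SE 0.211, limma adjusted p 0.023). The call was lost without Lef1KI C (0.83), Lef1KI D (0.90) or WT E (0.93).

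Fzd6 was the most abundant Frizzled, with 20.1, 26.8, 29.4, 32.9 and 25.3 TPM in Lef1KI A to E, against 18.01, 17.5, 22.1 and 16.5 TPM in WT A, B, D and E. Its groups overlapped by 1 library each, Lef1KI A and WT D (log2 difference 0.51, SE 0.157, limma adjusted p 0.0769), and it passed without Lef1KI A (0.60). Its exons overlap a gene model on the other strand. Fzd1 held 26.3 ± 5.01% of summed Frizzled transcripts in Lef1KI and 18.3 ± 3.44% in WT, while Fzd6 held 33.6 ± 5.20% in Lef1KI and 31.7 ± 2.78% in WT. The 10 Frizzled genes summed to 64.0 to 96.5 TPM in Lef1KI and 53.8 to 62.5 TPM in WT. Fzd7 and Fzd5, the next in level, averaged 10.2 ± 3.0 TPM in Lef1KI libraries and 9.98 ± 1.33 TPM in WT libraries, and 7.65 ± 2.36 TPM in Lef1KI libraries and 8.26 ± 1.04 TPM in WT libraries, with log2 differences of −0.01 and −0.13. Of all 10, 8 had a positive difference, beside 9281 of all 13336 genes, and 1 passed. That is 10.0% of the family, beside 6.73% of all genes that rose. Fzd4, a receptor best known in vessels, had 2.81, 2.01, 4.51, 3.78 and 2.11 TPM in Lef1KI A to E, against 0.81, 1.55, 1.99 and 2.17 TPM in WT A, B, D and E. The WT libraries lay at or below the lower part of the Lef1KI range, with overlap, and Fzd4 did not pass (log2 difference 0.61, SE 0.226, limma adjusted p 0.134). Fzd2, Fzd8 and Fzd10 averaged between 2.07 and 4.45 TPM in both groups, with differences of 0.18, 0.24 and 0.18. Fzd3 and Fzd9 averaged under 1 TPM in each group.

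The co-receptors Lrp5 and Lrp6, which Frizzled needs for beta-catenin signalling, did not pass. Lrp5 had 47.5, 43.3, 34.3, 46.03 and 41.6 TPM in Lef1KI A to E, against 43.4, 45.2, 44.3 and 54.2 TPM in WT A, B, D and E. The ranges overlapped, with Lef1KI C the lowest and WT E the highest (log2 difference −0.14, 95% confidence interval −0.41 to 0.14, limma adjusted p 0.514). Lrp6 averaged 15.2 ± 0.966 TPM in Lef1KI libraries and 14.5 ± 2.36 TPM in WT libraries (log2 difference 0.08, 95% confidence interval −0.24 to 0.39, limma adjusted p 0.768), and Lrp4, which binds Wnt inhibitors and also serves the neuromuscular synapse, averaged 5.87 ± 1.62 TPM in Lef1KI libraries and 4.13 ± 0.507 TPM in WT libraries (log2 difference 0.39, limma adjusted p 0.255).

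Ror1 and Ror2 are kinase-like receptors for Wnt5a. Ror1 (ENSMUSG00000035305, chr4:100095791-100444765, plus strand) had 7.91, 7.37, 9.97, 8.3 and 6.3 TPM in Lef1KI A to E, against 3.53, 3.21, 2.23 and 2.79 TPM in WT A, B, D and E. The lowest Lef1KI library, E, was well above the highest WT library, A. The means were 7.97 ± 1.35 TPM in Lef1KI libraries and 2.94 ± 0.562 TPM in WT libraries (SD, n = 5 and 4; log2 difference 1.19, SE 0.167, limma adjusted p 0.00211), and Ror1 kept its call whichever library was left out, with differences of 1.09 to 1.26. Ror2 had 11.2, 8.55, 10.1, 10.8 and 5.83 TPM in Lef1KI A to E, against 8.11, 2.43, 2.24 and 4.51 TPM in WT A, B, D and E. WT A reached the Lef1KI range, the other WT libraries stayed below it, and the difference did not pass (log2 difference 1.05, SE 0.308, limma adjusted p 0.0637). Ror2 did pass without WT A, without Lef1KI E and with array quality weights. Ryk, another kind of Wnt receptor, was far more abundant, with 82.2, 83.3, 83.7, 98.9 and 85.1 TPM in Lef1KI A to E, against 93.1, 94.6, 91.02 and 83.3 TPM in WT A, B, D and E. Lef1KI D was above all others, and the groups overlapped (log2 difference −0.06, 95% confidence interval −0.27 to 0.15, limma adjusted p 0.703). Ryk made up 83.4 ± 2.74% of the summed transcripts of these 3 receptors in Lef1KI and 92.6 ± 2.87% in WT.

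Both R-spondins in the table rose, but Rspo1 is there only through its Lef1KI values (in WT its mean log2 value was 1.1 SD, under the 3 SD of the deposited filter), and the other 2 of the 4 R-spondins were not analysed here. Rspo1 (ENSMUSG00000028871, chr4:124986430-125009099, plus strand) had 1.97, 1.28, 2.81, 1.52 and 0.94 TPM in Lef1KI A to E, against 0.41, 0.03, 0.22 and 0.07 TPM in WT A, B, D and E. In WT it was close to the bottom of the scale in every library, and all 5 Lef1KI libraries were higher, C most and E least (log2 difference 1.17, SE 0.186, limma adjusted p 0.0038). Rspo3 (ENSMUSG00000019880, chr10:29452416-29535867, minus strand) had 5.21, 2.54, 5.71, 4.82 and 2.94 TPM in Lef1KI A to E, against 0.59, 1.64, 1.82 and 1.57 TPM in WT A, B, D and E. Lef1KI B and E were the lowest of their group and still above WT D, the highest of the other (log2 difference 1.11, SE 0.241, limma adjusted p 0.0173); exons of Rspo3 overlap a gene model on the other strand. Both kept their calls whichever library was left out, with differences of 1.03 to 1.27 for Rspo1 and 0.93 to 1.24 for Rspo3. Lgr4, the R-spondin receptor, had 10.4, 11.3, 7.64, 15.3 and 9.49 TPM in Lef1KI A to E, against 13.4, 17.6, 21.7 and 14.4 TPM in WT A, B, D and E. Most Lef1KI libraries were below the WT libraries, but Lef1KI D lay among them, and the difference did not pass (log2 difference −0.60, SE 0.206, limma adjusted p 0.11) except with median centring (−0.76) and with array quality weights (−0.57). The summed R-spondin level was 5.95 ± 2.07 TPM in Lef1KI and 1.59 ± 0.432 TPM in WT.

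**Figure D3:**
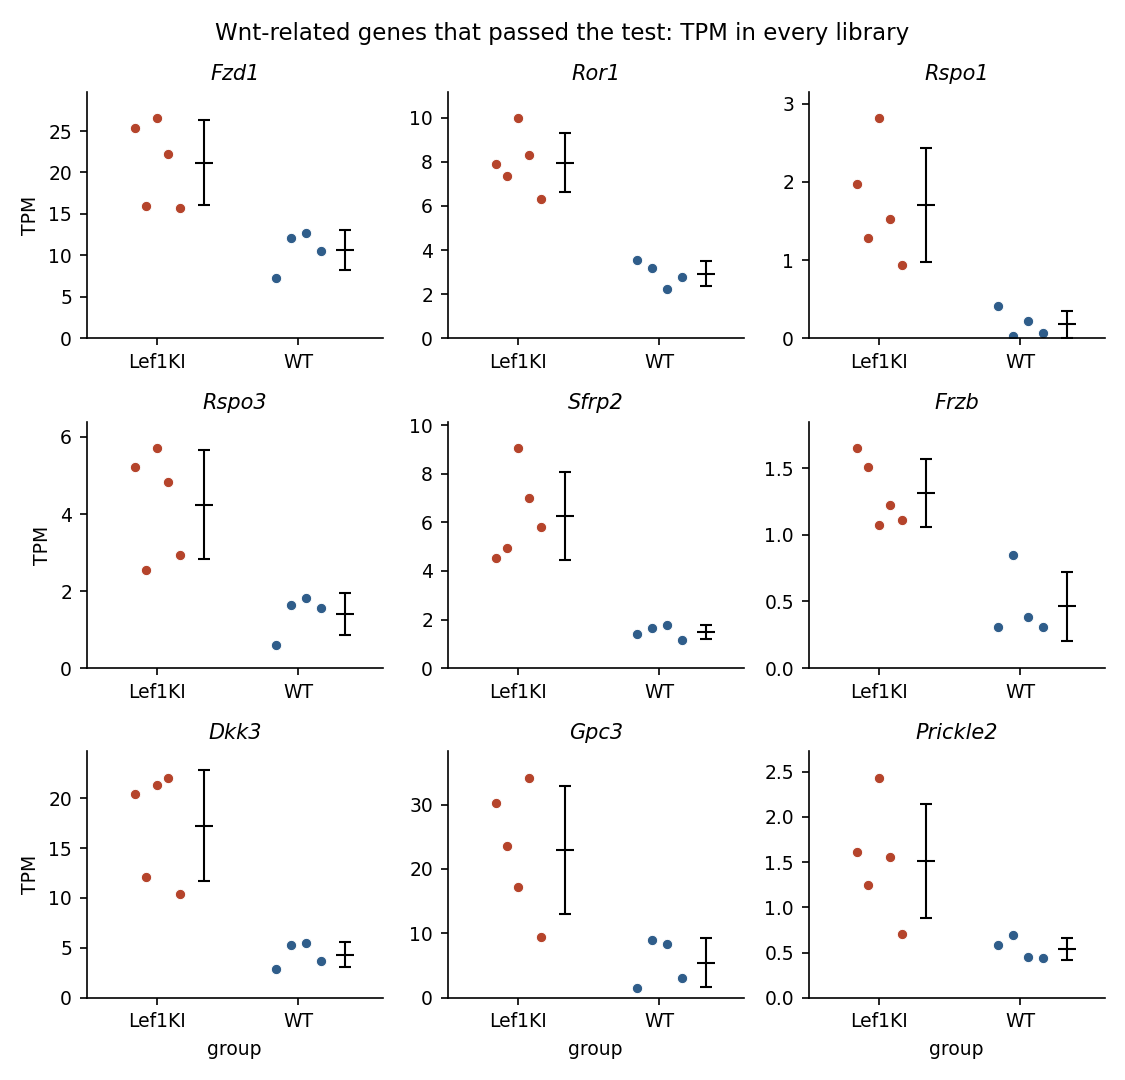
TPM in every library for the 9 genes that rose, with Lef1KI left of WT, 1 point per library and the mean ± SD beside the points. In each panel all 5 Lef1KI points lie above all 4 WT points, with the closest approach for Gpc3 (9.5 and 9.01 TPM) and Prickle2 (0.70 and 0.69 TPM).

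Sfrp2 (ENSMUSG00000027996, chr3:83766321-83774316, plus strand), a secreted decoy with a Frizzled-like domain whose start-proximal sequence is given above, had 4.52, 4.93, 9.06, 7.0 and 5.8 TPM in Lef1KI A to E, against 1.42, 1.65, 1.76 and 1.14 TPM in WT A, B, D and E. The highest WT library did not reach the lowest Lef1KI library, and Lef1KI C stood highest. The means were 6.26 ± 1.83 TPM in Lef1KI libraries and 1.49 ± 0.274 TPM in WT libraries (SD, n = 5 and 4; log2 difference 1.51, SE 0.191, limma adjusted p 0.00121). Its exons overlap a gene model on the other strand. Frzb (ENSMUSG00000027004, chr2:80411970-80447625, minus strand), of the same family, had 1.65, 1.51, 1.07, 1.22 and 1.11 TPM in Lef1KI A to E, against 0.31, 0.85, 0.38 and 0.31 TPM in WT A, B, D and E. WT B was well above the other WT libraries and below all Lef1KI libraries (log2 difference 0.67, SE 0.133, limma adjusted p 0.0111). With median centring Frzb did not pass (0.51). Sfrp1 had 4.32, 3.91, 8.96, 4.73 and 5.11 TPM in Lef1KI A to E, against 4.57, 3.54, 2.69 and 3.77 TPM in WT A, B, D and E. Lef1KI C was the highest, WT A was above Lef1KI A and B, and the difference did not pass (log2 difference 0.43, SE 0.22, limma adjusted p 0.26). Sfrp2 made up 48.1 ± 3.91% of the summed transcripts of the 3 genes in Lef1KI and 27.0 ± 6.73% in WT, while Sfrp1 made up 41.0 ± 4.12% in Lef1KI and 64.8 ± 8.87% in WT.

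Dkk3 (ENSMUSG00000030772, chr7:112116017-112159057, minus strand), the divergent member of the Dickkopf family, had 20.4, 12.1, 21.4, 22.03 and 10.4 TPM in Lef1KI A to E, against 2.9, 5.25, 5.47 and 3.68 TPM in WT A, B, D and E. The lowest Lef1KI library, E, was well above the highest WT library, D. The means were 17.3 ± 5.55 TPM in Lef1KI libraries and 4.33 ± 1.24 TPM in WT libraries (SD, n = 5 and 4; log2 difference 1.75, SE 0.261, limma adjusted p 0.00281), and Dkk3 kept its call whichever library was left out (1.61 to 1.90). Kremen1, a receptor through which Dickkopf proteins act on Lrp6, had 21.4, 24.9, 26.5, 22.99 and 22.9 TPM in Lef1KI A to E, against 21.1, 16.5, 20.7 and 18.1 TPM in WT A, B, D and E. Every Lef1KI library was above every WT library, by a small margin between Lef1KI A and WT A, and the difference of 0.30 did not pass (limma adjusted p 0.172). Kremen2 averaged under 1 TPM in each group.

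Glypicans are heparan sulfate proteoglycans of the cell surface that bind Wnt and other growth factors. Gpc3 (ENSMUSG00000055653, chrX:52272426-52613950, minus strand) had 30.2, 23.6, 17.2, 34.1 and 9.5 TPM in Lef1KI A to E, against 1.46, 9.01, 8.32 and 3.01 TPM in WT A, B, D and E. It had the largest log2 difference of the 52 and also a wide spread in both groups: Lef1KI E was close to WT B and D, and WT A was far lower (log2 difference 2.0, SE 0.464, limma adjusted p 0.0242). The call was lost without Lef1KI B (1.96), Lef1KI D (1.83), WT A (1.61) or WT E (1.85). Its neighbour Gpc4, 107.2 kb away on chromosome X, had 43.8, 38.4, 41.99, 47.4 and 32.2 TPM in Lef1KI A to E, against 37.6, 34.3, 34.1 and 33.7 TPM in WT A, B, D and E. Gpc4 was the most abundant glypican, its groups overlapped, and it did not pass (log2 difference 0.21, 95% confidence interval −0.07 to 0.48, limma adjusted p 0.333). Gpc3 made up 25.7 ± 7.22% of summed glypican transcripts in Lef1KI and 9.07 ± 5.85% in WT. Gpc1 averaged 14.03 ± 2.66 TPM in Lef1KI libraries and 9.29 ± 1.98 TPM in WT libraries (log2 difference 0.55, limma adjusted p 0.105), Gpc6 6.86 ± 1.38 TPM in Lef1KI libraries and 6.87 ± 1.48 TPM in WT libraries (log2 difference −0.0021, limma adjusted p 0.995) and Gpc2 1.19 ± 0.196 TPM in Lef1KI libraries and 1.97 ± 0.653 TPM in WT libraries (log2 difference −0.42, limma adjusted p 0.141).

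Inside the cell, Dishevelled proteins relay the signal from Frizzled. Dvl1 had 23.1, 22.1, 24.4, 23.9 and 26.9 TPM in Lef1KI A to E, against 17.2, 28.7, 24.9 and 26.9 TPM in WT A, B, D and E. WT A was low and the other libraries ran together (log2 difference 0.00085, 95% confidence interval −0.34 to 0.34, limma adjusted p 0.998). Dvl3 and Dvl2 had log2 differences of 0.06 and 0.18, and exons of Dvl1 and Dvl2 overlap other genes. Prickle2 (ENSMUSG00000030020, chr6:92370908-92706155, minus strand), a planar polarity protein gene, had 1.61, 1.25, 2.43, 1.56 and 0.7 TPM in Lef1KI A to E, against 0.58, 0.69, 0.45 and 0.44 TPM in WT A, B, D and E. Lef1KI E was almost level with WT B (log2 difference 0.67, SE 0.176, limma adjusted p 0.0419). Prickle2 stayed past the threshold in 1 of 9 leave-one-out fits, the one without Lef1KI E (differences of 0.55 to 0.80), and under neither scaling (0.51 after centring on the median and 0.60 after the trimmed-mean one). Vangl1, a membrane protein of the same system and its most abundant gene here, had 89.4, 78.5, 67.7, 75.9 and 82.97 TPM in Lef1KI A to E, against 75.6, 76.2, 64.01 and 74.8 TPM in WT A, B, D and E. The groups overlapped (log2 difference 0.12, 95% confidence interval −0.12 to 0.35, limma adjusted p 0.533), and the difference turned negative under both scalings (−0.04 and −0.05). Vangl2 averaged 6.0 ± 1.08 TPM in Lef1KI libraries and 8.18 ± 0.903 TPM in WT libraries (log2 difference −0.40, limma adjusted p 0.162), and Daam1, a formin that binds Dishevelled, averaged 19.8 ± 2.3 TPM in Lef1KI libraries and 14.8 ± 4.3 TPM in WT libraries (log2 difference 0.43, limma adjusted p 0.217). Prickle1, Prickle3 and Daam2 had differences of 0.36, 0.20 and 0.33, of which none passed.

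Within Lef1KI the order of libraries for the genes that rose was set beside that of the stromal markers. Library C, with the highest summed stromal level (1464 TPM), was the highest Lef1KI library for 6 of the 9 genes, beside 11 of the 52 and 23.9% of all genes. Library E, with the lowest stromal level (552 TPM), was the lowest Lef1KI library for 6 of the 9, beside 17 of the 52 and 15.8% of all genes. The exceptions were Frzb, highest in Lef1KI A and lowest in C, Dkk3 and Gpc3, highest in D, Sfrp2, lowest in A, and Rspo3, lowest in B. In WT, library A had the lowest stromal level (153 TPM) and was the lowest for 5 of the 9, beside 44.9% of all genes, while library D had the highest (209 TPM) and was the highest for 4 of the 9, beside 39.6% of all genes. Ties were given to the first library by letter in all these counts, and for Frzb library A was level with E. The part of stromal cells in these rises was not tested.

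**Figure D4:**
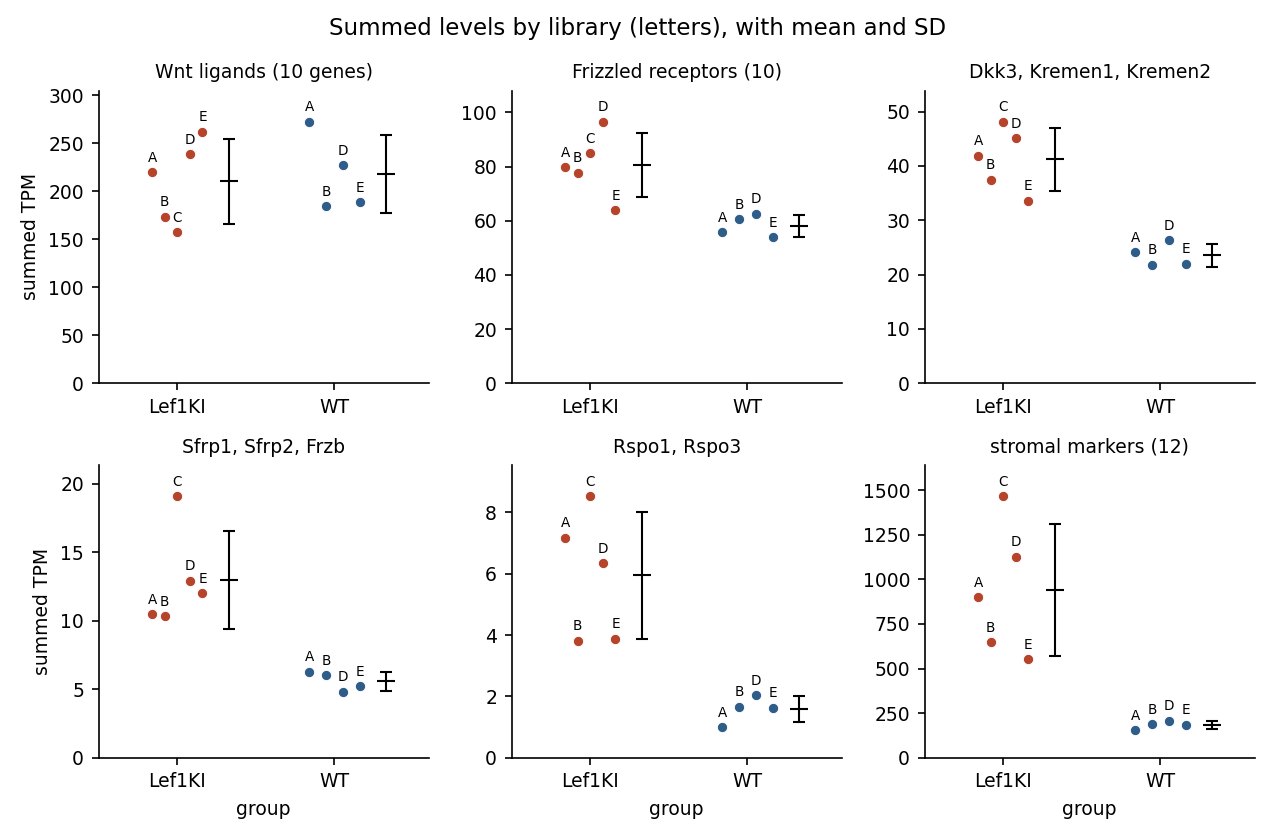
Summed TPM by library for 5 groups of Wnt-related genes and for the 12 stromal markers, with Lef1KI left of WT, letters naming libraries and the mean ± SD beside the points. Ligand sums overlap between the groups, whereas the sums of the Sfrp family, of Rspo1 and Rspo3, of Dkk3 with the Kremen genes and of the stromal markers lie higher in all 5 Lef1KI libraries, and the Frizzled sum of Lef1KI E (64.0 TPM) is just above that of WT D (62.5 TPM).

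Outside these families, 7 of 22 measured extracellular and membrane regulators of Wnt rose (31.8%) and 0 fell, beside the 6.73% and 1.24% of all genes. At an unadjusted p under 0.05 in limma 8 were higher and 0 lower, beside 2494 and 675 of all 13336 genes. The list's median log2 difference was 0.128, beside 0.141 over all genes. Among the 7, Cpz and Notum met the 3 SD filter of the deposited table in Lef1KI alone, where they are higher. Their place in this count is not independent of that filter. Without WT E, 4 of the 22 rose. The first 4 were Adgra2, a co-receptor for Wnt7 ligands (log2 difference 1.78, limma adjusted p 0.00157), Igfbp4, an IGF-binding protein also reported to restrain Wnt (log2 difference 2.15, limma adjusted p 0.00247), the membrane inhibitor Apcdd1 (log2 difference 1.13, limma adjusted p 0.00826) and Cpz, a carboxypeptidase with a Frizzled-like domain (log2 difference 0.88, limma adjusted p 0.0121). Of 50 measured cytoplasmic and nuclear pathway genes 6 rose and 0 fell, beside the 6.73% and 1.24% of all genes. In limma 13 of the 50 were higher and 1 lower at an unadjusted p under 0.05, beside 2494 and 675 of all 13336 genes. The median log2 difference of the 50 was 0.172, beside 0.141 over all genes. The 6 that rose included Lef1, the gene placed in the knock-in allele, so its rise was built into the design. Lef1 stood at 227 ± 79.8 TPM in Lef1KI libraries and 0.448 ± 0.0763 TPM in WT libraries (log2 difference 7.23, limma adjusted p 5.2e-08). Also among the 6 were the Dishevelled-binding inhibitors Nkd2 (log2 difference 1.05, limma adjusted p 0.00731) and Dact3 (log2 difference 0.68, limma adjusted p 0.00575). Csnk2a1, a kinase subunit, also rose (log2 difference 1.14, limma adjusted p 0.0045); it has 2 processed pseudogenes in GENCODE M21 among which reads could be split. Axin2, the usual readout of beta-catenin activity, averaged 8.52 ± 2.46 TPM in Lef1KI libraries and 12.2 ± 2.28 TPM in WT libraries (log2 difference −0.49, limma adjusted p 0.177).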

How the data were processed

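The authors deposited log2(TPM + 1) values per library, with group means and SDs, in 1 table; RSEM and the mm10 build are named per the submitters' processing notes, and the sources used here give neither versions nor an aligner. From the values, the authors' filter left genes with a group mean of 3 SD or more in 1 group at the least (lowest 3.002), which favours genes with little spread. TPM keeps no read counts, so the depth is unknown, and errors here are spreads between libraries. The deposited log2 values were raised to TPM (below 50 TPM, 100.0% came out as whole hundredths to within 0.01 hundredths). Columns were assigned to groups by name. No library pair shared more than 71 equal values above 0.

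Groups were compared with limma 3.58.1 (R 4.3.3) with an intensity trend, on all 13336 genes and 9 libraries, with group as the only term, two-sided, with Benjamini-Hochberg adjustment. The fit was tested on simulated data. Trimmed-mean scaling factors (trims of 0.3 and 0.05) were computed on TPM. Positions are from GENCODE M21 (mm10) and promoters from RefSeq (GRCm38.p6). Coordinates count from 1. The genes, lists and naming rule were chosen with earlier results of these data known. Every gene of the rule is accounted for. Library values are printed for genes with an adjusted p under 0.05, for the most abundant gene of each role and for up to 6 others whose groups do not overlap; Ror2 and Fzd4 were added after their values were seen. From each pathway list up to 4 genes per direction are named; Axin2 was added afterwards. Alternatives were median centring, trimmed-mean scaling, a pseudocount of 0.1 TPM, a filter at 1 TPM, no trend, array quality weights, each library left out and a block on column letters.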

Additional observations from a re-analysis of the deposited data

Results flagged for a closer look

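In 9 of 104 sets of values (each of the 52 genes in each group) a library stood apart from the rest of its group on the log2 scale by Dixon's gap criterion at the 95% level, where chance alone flags about 1 set in 20. WT A was low for Rspo3 (0.59 TPM, the others 1.57 to 1.82), for Lrp6 (10.97 TPM, the others 15.35 to 15.85) and for Fzd9 (0.33 TPM, the others 0.61 to 0.63). WT B was high for Frzb (0.85 TPM, the others 0.31 to 0.38) and for Gpc6 (9.07 TPM, the others 5.94 to 6.38). WT D was high for Wnt11 (6.77 TPM, the others 3.27 to 3.41) and low for Vangl1 (64.01 TPM, the others 74.8 to 76.2). WT E was low for Fzd10 (2.21 TPM, the others 3.93 to 4.29), and Lef1KI D was high for Ryk (98.93 TPM, the others 82.2 to 85.1). Among these genes Rspo3 and Frzb had passed the test. Rspo3 kept its call without WT A and Frzb kept its call without WT B, with differences of 0.93 and 0.79.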

How the results depend on the processing

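Sfrp2, Dkk3, Ror1 and Rspo1 kept their calls under every alternative run; Fzd1, Gpc3, Rspo3, Frzb and Prickle2 each lost theirs under at least 1, as given with each gene or here, and the cause was not tested. The number of the 52 genes called was 6 to 11 when a library was left out, 19 with array quality weights (16 higher and 3 lower) and 5 with a replicate block. Over all genes it was 628 (without WT E; 643 without WT B) to 1686 (without Lef1KI A), against 1063, with 2334 under array quality weights and 486 with the replicate block. Of the other regulators of Wnt outside the cell 4 to 7 were called when a library was left out, 4 without WT E, and 3 with the replicate block, which also left 3 of the cytoplasmic and nuclear genes. The block used the column letters A, B, D and E, which no label ties to replicate numbers. Same-letter libraries deviated together with correlations of −0.259, 0.0199, 0.258 and −0.148, and 1 of the 4 Lef1KI libraries (D) correlated best with its own letter, so the letters are not treated as pairs. With the block Fzd1, Gpc3, Rspo3 and Prickle2 lost their calls. Prickle2 also lost its call with the 1 TPM filter and without the intensity trend. Array quality weights added calls for Fzd3, Fzd6, Gpc1, Gpc2, Kremen1, Lgr4, Ror2, Wnt11, Wnt5a and Wnt6. Wls changed sign with array quality weights (0.0012) and the block (0.0367), and ran from −0.0981 to 0.0367 when a library was left out. Dvl1 changed sign with median centring (−0.16), trimmed-mean scaling (−0.16), array quality weights (−0.17) and the block (−0.0049), and ran from −0.151 to 0.0834. Vangl1 changed sign under the 2 scalings (−0.0442 and −0.0487). Without read counts, how far depth limits the genes under 1 TPM is unknown.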

Other observations

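Adgra2 and Reck form a co-receptor complex on the cell surface that serves Wnt7a and Wnt7b; both rose in Lef1KI, and Reck was chosen after its values were seen. Adgra2 had 14.3, 7.58, 18.8, 14.1 and 9.63 TPM in Lef1KI A to E, against 2.45, 2.99, 3.32 and 2.75 TPM in WT A, B, D and E, and every Lef1KI library was above every WT library (log2 difference 1.78, SE 0.235, limma adjusted p 0.00157). Reck had 6.59, 3.8, 5.74, 4.61 and 2.03 TPM in Lef1KI A to E, against 0.62, 2.19, 1.74 and 1.36 TPM in WT A, B, D and E. Lef1KI E was below WT B there, so the groups overlapped (log2 difference 1.14, SE 0.279, limma adjusted p 0.0313), and Reck stayed past the threshold in 3 of 9 leave-one-out fits (differences of 0.95 to 1.34) and under neither scaling. The ligand Wnt7b stood at 45.1 ± 9.21 TPM in Lef1KI libraries and 38.9 ± 7.38 TPM in WT libraries beside them and Wnt7a at 0.846 ± 0.95 TPM in Lef1KI libraries and 0.53 ± 0.0707 TPM in WT libraries, and neither passed. The summed stromal markers were higher in the same Lef1KI libraries (552 to 1464 TPM in Lef1KI and 153 to 209 TPM in WT), and their part in these rises was not tested.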
